A study of Mus musculus with 6 samples.

Results

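The Ikaros and Runx transcription factor genes were followed in mouse natural killer (NK) cells. The members were 4 genes of the Ikaros family (Ikzf1, Ikzf2, Ikzf3 and Ikzf5), the 3 Runx genes (Runx1, Runx2 and Runx3) and Cbfb, which encodes the shared partner of the Runx proteins. They were found by gene symbol, each as a single row, and made up 8 of the 37991 genes counted. RNA sequencing had been done on spleen NK cells carrying CD27 and CD11b, surface proteins of an intermediate stage of NK cell maturation, from mice of C57BL6 background. The 2 groups were 3 wildtype libraries and 3 Rroid-deficient libraries. Rroid names a locus near Id2, the gene of an inhibitor of E proteins that innate lymphoid cells need, and the long noncoding RNA made there. The labels give neither the allele nor the age of the mice, and they do not say whether libraries came from separate animals, so the spread behind each p-value is that between these libraries and may be technical.

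Ikaros family proteins bind DNA through zinc fingers in their amino-terminal part and pair with each other through a second set of zinc fingers at the carboxyl end. In lymphocytes they recruit chromatin remodelling and histone deacetylase complexes, and cereblon ligands used against myeloma act by degrading Ikaros and Aiolos. Runx proteins bind DNA through the Runt domain, which CBF-beta stabilises without touching DNA itself. Runx3 is the Runx factor best known in cytotoxic lymphocytes, where it acts on cytokine receptor and effector genes, and Aiolos takes part in the maturation of NK cells.

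Sequence from RefSeq (build GRCm38.p6) was available for promoter windows of 6 of the 8 members, 9 windows in all. Each was read over the 250 bases before the transcript start, for TGTGGT, a core motif of Runx proteins, and GGGAA, a core motif of Ikaros proteins, on both strands. On either strand, a match of one motif can share at most a single end letter with a match of the other. The first sequence below is shown because it lies before the upstream start of Runx3, the most abundant Runx gene here, and was the member window with more than 1 Runx motif; it is cut to the 197 bases outside annotated exons, at chr4:135120448-135120644 on the plus strand. The second lies before the downstream start of Ikzf1, the most abundant member, at chr11:11689927-11690176 on the plus strand. It was picked because it held 2 Ikaros motifs. The window of the upstream Ikzf1 start held 0, and the Runx2 window also held 2. Capitals mark the Runx motif in the first and the Ikaros motif in the second, both read on the opposite strand.
Runx3: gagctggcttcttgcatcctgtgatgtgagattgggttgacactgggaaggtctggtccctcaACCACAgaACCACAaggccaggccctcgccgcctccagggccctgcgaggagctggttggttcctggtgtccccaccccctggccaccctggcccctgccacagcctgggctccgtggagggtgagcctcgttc
Ikzf1: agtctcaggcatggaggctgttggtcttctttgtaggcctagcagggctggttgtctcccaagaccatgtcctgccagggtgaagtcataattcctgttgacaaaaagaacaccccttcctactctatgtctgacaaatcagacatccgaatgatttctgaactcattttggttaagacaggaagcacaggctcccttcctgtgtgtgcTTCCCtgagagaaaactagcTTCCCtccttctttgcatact
The Runx3 matches lay 134 to 129 and 126 to 121 bases before the start, next to each other. Of 32851 windows of all genes, 14.0% held at least 1 TGTGGT and 1.27% held at least 2. Among the member windows, 2 held it, those of Runx3 and Runx2. GGGAA is short and stood in 7 of the 9 member windows, against 56.2% of all windows; 21.2% of all windows held at least 2 matches. A match is a description of these letters and says nothing of binding in these cells.

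All 8 members were expressed above the filter on low counts, which kept 11724 genes. Levels are CPM, counts scaled to a common library size that TMM corrects for the makeup of each library, with the mean ± SD of the 3 libraries of a genotype. Reads assigned to genes ranged from 5823626 to 9216430 per library, and 79.96% to 84.4% of listed reads fell in rows that name no gene. Of the tested genes, 5.63% had no read in wildtype 1 and 5.57% in deficient 1, against 0.23% to 2.43% in the other libraries. Id2, the check of the genotype labels, had 467, 338 and 341 CPM in wildtype and 38.9, 66.7 and 81.2 in deficient libraries (edgeR adjusted p = 0.0308). The Rroid transcript itself was not analysed here.

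**Figure D1:**
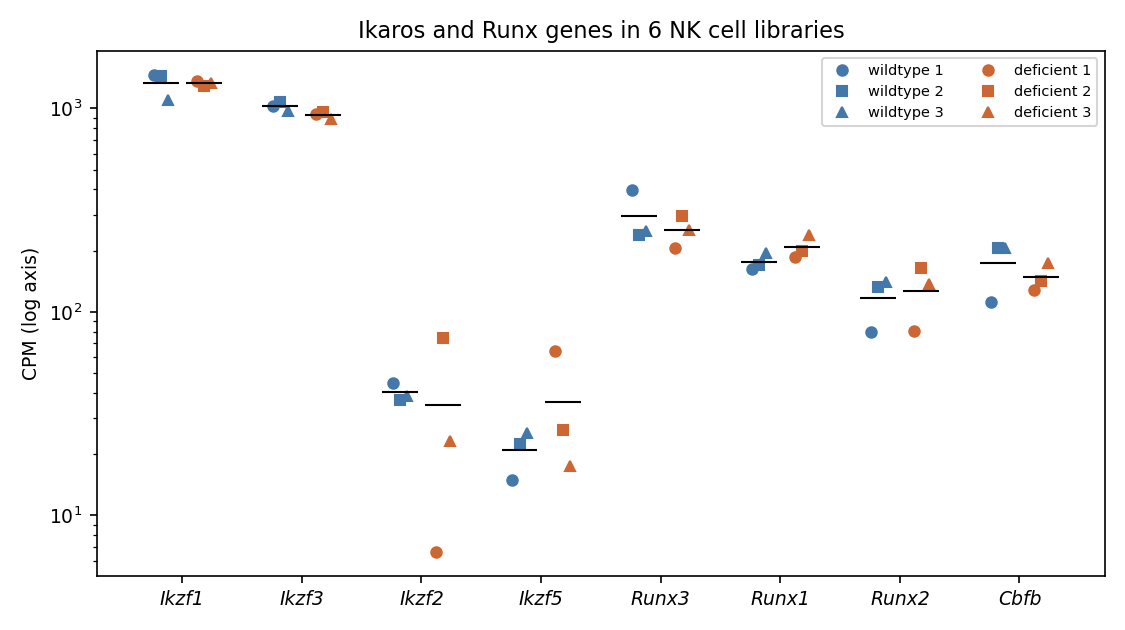
CPM of the 8 genes on a log axis, with 1 point per library (circle, square and triangle for libraries 1, 2 and 3; blue wildtype, orange Rroid-deficient) and a bar at the mean of each genotype. Ikzf1 and Ikzf3 lie close to 1000 CPM in every library, and the points of both genotypes overlap in every gene but Ikzf3.

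Per kb of exon, Ikzf1 stood first among the 8 genes, with a mean of 230.4 CPM per kb over the 6 libraries, and Ikzf3 second with 111. Runx3 had 54.7 and Cbfb 46.4 CPM per kb. Runx1 followed with 15.97 and Runx2 with 13.8, and Ikzf5 and Ikzf2 closed the order with 4.97 and 3.23. The mean level of Ikzf1 exceeded that of 98.9% of the tested genes with a known length, that of Ikzf3 97.7% and that of Runx3 94.7%. Runx1 stood above 77.1%, Ikzf5 above 42.8% and Ikzf2 above 29.9%. Over the 6 libraries, the ranges of Ikzf1 and Ikzf3 lay apart, as did those of Ikzf3 and Runx3, and those of Cbfb and Runx1. Runx3 and Cbfb overlapped (41.4 to 79.8 and 32.2 to 59.4 CPM per kb), with Runx3 above Cbfb in 4 of 6 libraries. Runx1 and Runx2, Runx2 and Ikzf5, and Ikzf5 and Ikzf2 overlapped too. With the longest transcript as length in place of all exons, the order of the 8 genes was the same, but Ikzf1 (214 to 284 CPM per kb) and Ikzf3 (193 to 234) then overlapped in range while Ikzf1 was higher in 6 of 6 libraries. By that measure Cbfb and Runx1 also overlapped, and Runx1 and Runx2 lay apart. The exon lengths come from a later annotation than the one counted, so a level per length is approximate.

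Ikzf1, which encodes Ikaros, the founding member of the family and a regulator of lymphocyte development, had 1465, 1442 and 1103 CPM in wildtype libraries 1 to 3 and 1358, 1286 and 1333 CPM in deficient libraries 1 to 3. The deficient values all lay inside the wildtype range. The means were 1337 ± 203 and 1326 ± 36.3 CPM, so that the change was -0.01 on the log2 scale with an SE of 0.15 (edgeR adjusted p = 0.996). The 95% interval reached from 0.789-fold to 1.25-fold.

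Ikzf3, which encodes Aiolos, a factor of maturing NK and B cells, had 1025, 1077 and 968 CPM in wildtype and 937, 959 and 887 CPM in deficient libraries. Every deficient library lay below every wildtype library, though the nearest values, 968 and 959 CPM, were close. From 1024 ± 54.6 to 928 ± 37.0 CPM, the change of -0.14 on the log2 scale, with an SE of 0.14, did not pass (edgeR adjusted p = 0.936). Ikzf3 also had a small spread within genotypes, with an SD of 0.07 on the log2(CPM + 1) scale; 5.13% of the 39 tested genes within 1.25-fold of its mean level had a smaller one.

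Ikzf2, which encodes Helios, a factor known from regulatory T cells and from early and innate-like lymphocytes, had 44.9, 37.0 and 38.7 CPM in wildtype libraries. In deficient libraries it had 6.63, 74.4 and 23.1 CPM, from raw counts of 46, 456 and 167. The wildtype values lay together while the deficient values ranged over 11.2-fold, on both sides of wildtype. On the log2 scale the change was -0.21 with an SE of 0.71 (edgeR adjusted p = 0.978). The interval, from 0.288-fold to 2.58-fold, holds sizeable changes in either direction, which were not detectable at this precision. Its within-genotype SD of 1.17 on the log2 scale was above that of 92.6% of 1368 tested genes of like level. The direction rested on single libraries: without deficient library 1 the log2 fold change was 0.27, and without deficient library 2 it was -1.44 (edgeR adjusted p = 0.8996).

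Ikzf5, which encodes Pegasus, a more distant relative that binds its own DNA motif, had 14.98, 22.4 and 25.3 CPM in wildtype and 64.0, 26.4 and 17.6 CPM in deficient libraries. Deficient library 1 stood above all others and the other 2 deficient libraries lay among or next to the wildtype values. The means were 20.9 ± 5.34 and 36.0 ± 24.7 CPM. This was the largest log2 fold change in size among the 8 genes, 0.78 with an SE of 0.58 (edgeR adjusted p = 0.925), and its interval reached from 0.702-fold to 4.22-fold. Without deficient library 1 it was 0.07. Ikzf4, the remaining classical family member, which encodes Eos and was not among the 8, had a count of 2 in wildtype library 1 and 0 in the other 5 libraries.

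Runx3 had 399, 238 and 249.9 CPM in wildtype and 207, 295 and 254 CPM in deficient libraries. Wildtype library 1 stood above the rest, and the other wildtype libraries lay within the deficient range. Means of 296 ± 89.9 and 252 ± 44.0 CPM gave a log2 fold change of -0.23 with an SE of 0.25 (edgeR adjusted p = 0.936) and an interval from 0.58-fold to 1.26-fold. Without wildtype library 1 it was 0.04.

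Runx1, a factor of blood stem cells and early lymphocytes, had 162, 170.2 and 195 CPM in wildtype and 186, 199 and 239.9 CPM in deficient libraries. The deficient libraries were on average the higher ones, with wildtype 3 inside their range. With means of 176 ± 17.5 and 208 ± 28.2 CPM, the log2 fold change of 0.25 had an SE of 0.21 (edgeR adjusted p = 0.927), and its interval ran from 0.858-fold to 1.64-fold.

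Runx2, best known as the master factor of bone formation, had 79.2, 133 and 139.7 CPM in wildtype and 80.4, 164 and 138 CPM in deficient libraries. Library 1 of each genotype was the low one, and the remaining 4 libraries lay together. Between means of 117 ± 33.0 and 127 ± 42.7 CPM, the log2 fold change of 0.12 was smaller than its SE of 0.33 (edgeR adjusted p = 0.974).

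Cbfb, the non-DNA-binding partner, had 112, 206 and 207 CPM in wildtype and 127, 142 and 175 CPM in deficient libraries. Here too library 1 was the lowest of each genotype, and the deficient values lay within the wildtype range. Means of 175 ± 54.3 and 148 ± 24.2 CPM differed by -0.24 on the log2 scale, less than the SE of 0.28 (edgeR adjusted p = 0.936).

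The comparison of genotypes asked whether loss of Rroid, under which Id2 fell, also altered these lineage factors. In edgeR's quasi-likelihood test, 0 of the 8 genes passed an adjusted p of 0.05, where 0.0171% of the 11724 tested genes did (0.00853% higher and 0.00853% lower in deficient libraries). No member had an unadjusted p under 0.05 either (0 of 8, against 5.29% of tested genes), and other tools called 0 of 8 each (DESeq2, which called 0.569% of its genes, limma-voom, 0.00853%, and edgeR with a stricter filter on low counts, 0.0177%). In 1 of the 8 genes, Ikzf3, the genotypes did not overlap; that was so for 12.4% of all tested genes, so the share is near the background. Of the log2 fold changes, 5 were negative and 3 positive, with a median of -0.08 beside 0.02 over all tested genes. For 6 members, Ikzf1, Ikzf3, Runx1, Runx2, Runx3 and Cbfb, the 95% interval of the change lay within 2-fold in both directions. The Id2 interval, 3.86-fold to 9.76-fold lower, lay outside the intervals of all 8 genes. In bulk samples, fewer cells of a type and less RNA per cell cannot be told apart.

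**Figure D2:**
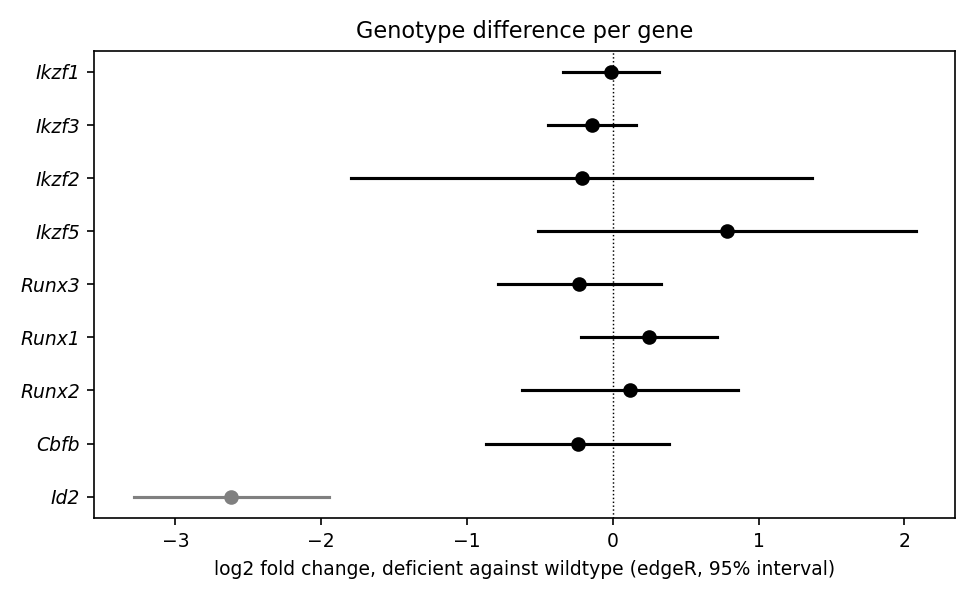
Log2 fold change of deficient against wildtype libraries for the 8 genes (black) and Id2 (grey), with 95% intervals from edgeR; the dotted line marks no difference. All 8 intervals cross 0, the intervals of Ikzf2 and Ikzf5 are the widest, and Id2 lies at -2.62.

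Within the Ikaros family, the shares of Ikzf1 and Ikzf3 per length differed little between libraries, while the small shares of Ikzf5 and Ikzf2 varied several-fold. Ikzf1 held 64.9% ± 2.83 of the summed CPM per kb of the 4 genes in wildtype and 66.6% ± 1.80 in deficient libraries. Ikzf3 held 33.1% ± 2.42 and 30.7% ± 1.03. Ikzf5 held 0.694% to 3.16% and Ikzf2 0.161% to 1.87% over the 6 libraries, so that Ikaros and Aiolos transcripts made up nearly the whole sum. The genotypes overlapped in each of these shares. With the longest transcript as length, the Ikzf1 share was 52.6% in wildtype and 54.7% in deficient libraries, so the balance of Ikaros and Aiolos depends on the length used. Summed over the 4 genes, the level was 355 ± 39.97 and 345 ± 8.38 CPM per kb.

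Within the Runx family, Runx3 held 66.98% ± 9.61 of the summed CPM per kb of the 3 genes in wildtype and 61.4% ± 2.28 in deficient libraries. Runx1 held 17.1% ± 3.51 and 21.4% ± 3.28, and Runx2 15.9% ± 6.15 and 17.2% ± 3.05. Wildtype library 1 stood apart with a Runx3 share of 78.1%, where the other 5 libraries lay between 58.8% and 62.8%. The ratio of Runx1 to Runx3 per length was 0.169, 0.298 and 0.325 in wildtype and 0.373, 0.281 and 0.393 in deficient libraries, with overlap between genotypes. Summed over the 3 genes the level was 86.95 ± 13.5 and 82.1 ± 14.5 CPM per kb. Cbfb, whose protein pairs with all 3 Runx proteins, stood at 0.316, 0.771 and 0.725 of that sum in wildtype and 0.555, 0.434 and 0.582 in deficient libraries, so that its transcript level was below the summed Runx level in each library.

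**Figure D3:**
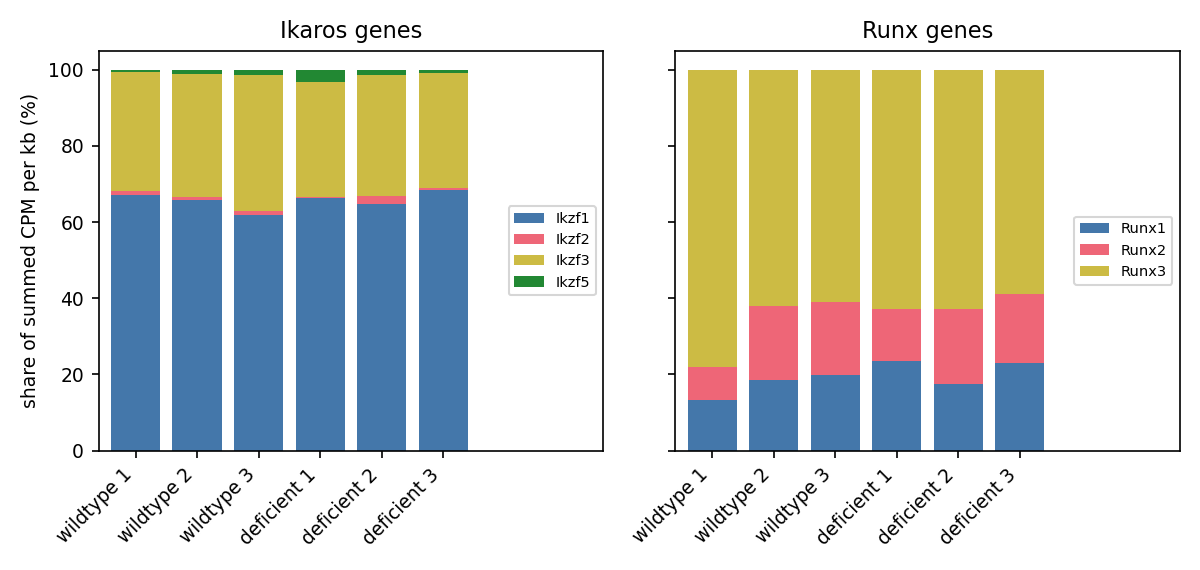
Share of each gene in the summed CPM per kb of the Ikaros genes (left) and of the Runx genes (right), in percent, with 1 stacked bar per library. Ikzf1 and Ikzf3 fill nearly the whole Ikaros bar, and wildtype 1 has the highest Runx3 share, 78.1%.

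Across the 6 libraries the members did not vary alike. After centring each gene on its own mean, the log2(CPM + 1) values of Ikzf1 and Ikzf3 differed by 0.10 on average, the smallest difference of any pair. Both genes varied little, with an SD over the 6 libraries of 0.15 and 0.10, so this does not show that they moved together: in wildtype 3 they stood at -0.26 and -0.01. Among the Runx genes and Cbfb, the pair with the smallest difference was Runx2 and Cbfb, at 0.23. Ikzf2 and Ikzf5 differed most, by 1.12, since deficient library 1 had the lowest Ikzf2 and the highest Ikzf5 value. Runx1 had a within-genotype SD of 0.17 on the log2 scale, and 11.5% of 497 tested genes of like level had a smaller one. For Runx2 (SD 0.49) 76.3% of 739 such genes had a smaller SD, for Runx3 (SD 0.34) 72.7% of 322, and for Cbfb (SD 0.39) 65.0% of 572. The low Runx2 and Cbfb values and the high Runx3 value of wildtype 1, and the outlying Ikzf2 and Ikzf5 values of deficient 1, fell in the 2 libraries with most tested genes at 0; the part of that in these values was not tested. Without both libraries the log2 fold changes of Runx3, Ikzf2 and Ikzf5 were 0.17, 0.35 and -0.13, each opposite in sign to the value with all libraries.

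**Figure D4:**
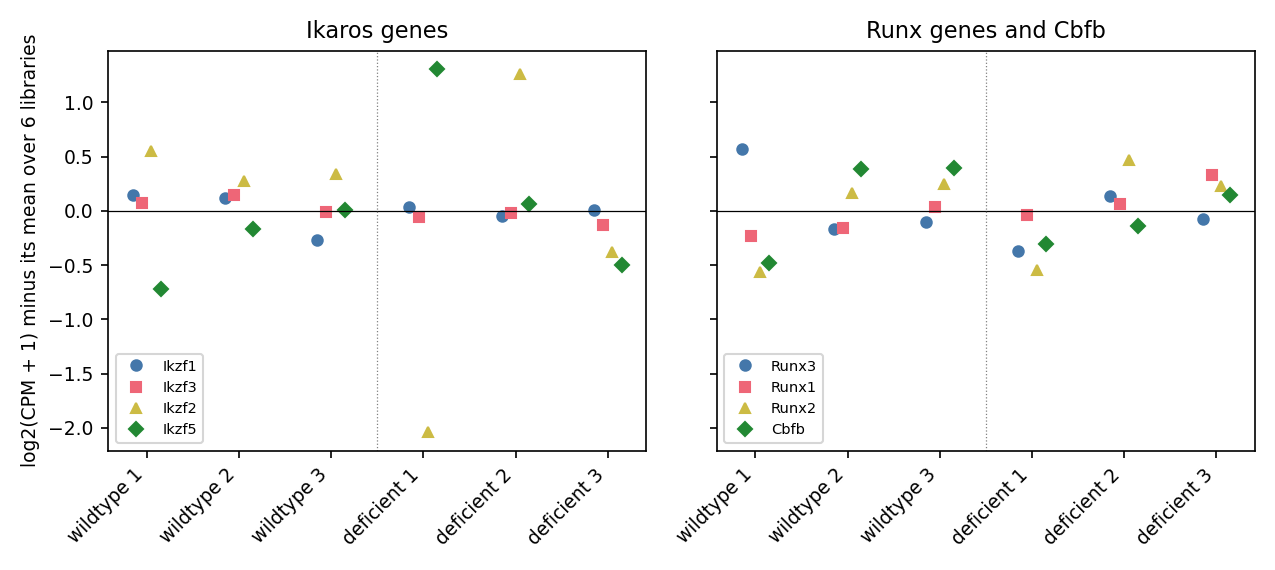
Log2(CPM + 1) of each gene minus its mean over the 6 libraries, for the Ikaros genes (left) and the Runx genes with Cbfb (right); the dotted line separates wildtype from Rroid-deficient libraries. Ikzf1 and Ikzf3 stay near 0, while Ikzf2 spans from -2.04 to 1.26 within the deficient libraries.

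The genes with the pattern most like each member were sought among 6154 other genes averaging 20 CPM or more, by the mean absolute difference of centred log2(CPM + 1) over the 6 libraries. For Ikzf1 these were mt-Rnr2 (0.04) and Stk4 (0.06), where the median gene differed by 0.38. For Ikzf3 they were Kif1b (0.04) and Cnot1 (0.05). For Runx3 they were Chd4 (0.07) and the pseudogene Rpl23a-ps3 (0.07), for Runx1 Tlk1 (0.05) and Rbm33 (0.07), for Runx2 Gtpbp1 (0.06) and Prpf38a (0.09), and for Cbfb Smad4 (0.05) and Mapk14 (0.07). Ikzf2 and Ikzf5 had no gene as close, with Lztr1 (0.17) and Anxa5 (0.18), and Snf8 (0.13) and Pa2g4 (0.14). The median gene also differed more from Ikzf2 and Ikzf5, by 0.86 and 0.59. With 6 libraries such closeness is a description of these samples, and a gene close by this measure to a member that varies little itself varies little.

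The corepressor partners of Ikaros, subunits of the NuRD, Sin3 and CtBP complexes, were all measured. Of 17 tested, 0 passed over all genes, 6 had a positive and 11 a negative log2 fold change, and the median was -0.28 beside 0.02 over all tested genes. At an unadjusted p under 0.05 there were 3 of 17, where 5.29% of all tested genes were. Gatad2a, a NuRD scaffold subunit, had 201, 208 and 262 CPM in wildtype and 395, 384 and 276 in deficient libraries, with every deficient library higher, as in 6.03% of all tested genes, and a log2 difference of 0.65 with an SE of 0.22 (edgeR adjusted p = 0.895). Mta2, another NuRD subunit, had 180.3 ± 56.3 and 108 ± 26.4 CPM, a log2 difference of -0.74 with an SE of 0.29 (edgeR adjusted p = 0.914). Sin3a, the scaffold of the Sin3 deacetylase complex, had 209 ± 77.4 and 129 ± 33.6 CPM, a log2 difference of -0.70 with an SE of 0.31 (edgeR adjusted p = 0.914). In Mta2, Sin3a and Hdac1, 3 of the 17, every deficient library lay below every wildtype library, as it did in 6.33% of all tested genes. Gatad2a was the 1 of 17 with every deficient library higher.

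Of 18 listed Runx cofactors, 17 were found by symbol and 14 tested; 0 passed, 9 had a positive and 5 a negative log2 fold change, and the median was 0.04. Beside Sin3a, those of smallest p were Cbfa2t3, an ETO family corepressor, with 57.1 ± 3.43 and 80.1 ± 13.6 CPM (edgeR adjusted p = 0.925), and the histone acetyltransferase gene Crebbp, with 367 ± 58.8 and 444 ± 62.4 CPM (edgeR adjusted p = 0.925). The Groucho gene Tle2 was at or next to 0, with a count of 1 in 1 library. Of the 5 subunits of the cereblon ubiquitin ligase, through which drugs degrade Ikaros and Aiolos in human cells, 0 passed, and the median log2 fold change was 0.20. Crbn, its substrate receptor, had 35.6 ± 10.9 and 40.8 ± 28.2 CPM, and the cullin genes Cul4b and Cul4a had 44.1 ± 15.5 and 60.5 ± 11.6, and 47.8 ± 35.0 and 74.6 ± 9.68 CPM. Wildtype 1 was the low library in both, with 26.4 CPM of Cul4b and 7.64 of Cul4a. Wildtype 2 and 3 had 54.8 and 51.1 CPM of Cul4b, and 71.9 and 63.9 of Cul4a.

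Of 22 genes linked to Runx factors in lymphocytes, 17 were tested and 0 passed, with 8 positive and 9 negative log2 fold changes and a median of -0.01. Of the 17, 2 were lower and 2 higher in every deficient library, where 6.33% and 6.03% of all tested genes were. Gzmb, which encodes the cytotoxic protease granzyme B, had 338, 405 and 399.5 CPM in wildtype and 116, 277 and 233 CPM in deficient libraries. Every deficient library was lower, and the log2 fold change was -0.87 with an SE of 0.29 (edgeR adjusted p = 0.895). The cytokine gene Csf2 was near the floor, with counts of 0, 15 and 0 in wildtype and 27, 88 and 36 in deficient libraries (edgeR adjusted p = 0.914). Eomes, the T-box factor of NK cells, had 627 ± 159.6 and 474 ± 60.6 CPM, -0.40 on the log2 scale with an SE of 0.21 (edgeR adjusted p = 0.925). Cd8a, which Runx3 activates in T cells, had no count in any library, and Cd4, which Runx proteins silence, had a count of 57 in wildtype 1 and 0 in the other 5.

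Of 20 genes linked to Ikaros factors, 12 were tested and 0 passed, with 8 positive and 4 negative log2 fold changes and a median of 0.06. Cdk6, a cell cycle kinase gene, had 87.5, 60.5 and 56.2 CPM in wildtype and 50.6, 31.8 and 40.4 CPM in deficient libraries, all of them lower, by -0.73 on the log2 scale with an SE of 0.37 (edgeR adjusted p = 0.925). Dtx1, a Notch pathway gene, had 2.996, 19.3 and 20.1 CPM in wildtype and 21.5, 44.5 and 40.1 CPM in deficient libraries, all of them higher, by 1.32 on the log2 scale with an SE of 0.71 (edgeR adjusted p = 0.925). Of the 12, 1 was lower and 1 higher in every deficient library, where 6.33% and 6.03% of all tested genes were. The survival gene Bcl2 had 374 ± 42.3 and 463 ± 109 CPM (edgeR adjusted p = 0.925). Dntt, Igll1 and Notch3, genes of early lymphocytes, had no count in any library.

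The labelled cell type was checked against its markers. All 12 NK cell markers found by symbol (of 13 listed) were tested, with Ncr1 at 1015 ± 8.66 and 940.1 ± 61.5 CPM and Klrb1c at 1001 ± 48.9 and 796 ± 90.3. Of the 12, 8 had lower and 4 had higher fitted levels in deficient libraries, the 4 being Itga2 (391 ± 81.0 and 495 ± 193 CPM), Tbx21, Cd27 and Il2rb, and 0 passed. Their summed level was 12349 to 14754 CPM in wildtype and 10529 to 11583 in deficient libraries. The gap in this sum rested on Gzma (4501 ± 866 and 2560 ± 217 CPM). Without Gzma, the other 11 summed to 8259 to 9775 and 7889 to 9268 CPM, which overlap. Like Gzma, the genes Klrb1c, Klrk1 (958 ± 165 and 747 ± 25.7 CPM) and Klrd1 (553 ± 11.5 and 456 ± 28.4 CPM) were lower in every deficient library. That held for 4 of the 12, where it held for 6.33% of all tested genes. Higher in every deficient library were 0 of the 12. Of 15 T cell markers 7 were tested, and their summed level was 224 to 335 and 379.8 to 492 CPM. Of the 7, 5 had a positive log2 fold change and 2, Bcl11b and Lat, a negative one; 0 passed. Cd3g had 6.22 ± 1.91 and 63.4 ± 7.44 CPM, Cd3d 6.79 ± 1.85 and 49.2 ± 22.4, and Trbc2 51.4 ± 10.4 and 111 ± 17.3, each higher in every deficient library. Bcl11b had 13.7 ± 8.20 and 2.38 ± 0.937 CPM, lower in every deficient library, while Cd3e had a count of 3 in wildtype 2 and 0 in the other 5 libraries. Of the 7, 3 were higher and 1 lower in every deficient library, where 6.03% and 6.33% of all tested genes were. Foxp3, the factor of regulatory T cells, in which Ikzf2 is high, had counts of 11, 10 and 36 in wildtype libraries and 43, 88 and 1 in deficient libraries, where Ikzf2 had counts of 46, 456 and 167. Regulatory T cell markers summed to 4.30 to 10.4 and 7.47 to 31.0 CPM, and 2 of 4 were tested. Of 8 B cell markers 2 were tested, with Cd79a at 4.13 ± 3.31 and 2.72 ± 3.37 CPM, and Pax5 had no count; the sum, 226 to 333 and 318 to 613 CPM, came almost wholly from Ighm. Siglech, of plasmacytoid dendritic cells, in which Runx2 is high, had a count of 1 in wildtype 2 and 0 elsewhere, and that list summed to 163 to 298 and 192 to 318 CPM, from Irf8 and Tcf4. Of 10 myeloid markers 3 were tested, with sums of 422 to 504 and 401 to 469 CPM carried by Itgax; the other 9 summed to 5.24 to 12.7 and 23.7 to 30.4 CPM, and Lyz2 had counts of 12 and 55 in library 3 of each genotype and 0 elsewhere. Erythroid markers summed to 4.72 to 18.6 and 0.326 to 4.42 CPM, apart through Alas2 (without it 0.629 to 2.996 and 0.326 to 2.45), and megakaryocyte markers to at most 6.77, with Pf4 and Ppbp at 0. Markers of ILC1 summed to 33.6 to 49.9 and 54.3 to 64.7 CPM, apart through Il7r (without it 18.7 to 23.6 and 10.4 to 32.9), and those of ILC2 and ILC3 to 50.2 to 73.98 and 55.5 to 84.3. The T cell sum lay apart between genotypes also without Trbc2, its member of largest difference (173 to 273 and 288 to 375 CPM). That sum still held Cd3g and Cd3d, and a sum without these too was not made. Of the untested T cell markers, Cd6 and Cd8a had no count, and Cd5, Themis and Trat1 had counts of at most 7. The 7 tested went both ways, and 4 of them, Cd3g, Cd3d, Trbc2 and Bcl11b, had an unadjusted edgeR p under 0.05. That held for 5.29% of all tested genes. The part of these marker genes in the levels of the 8 genes and of the partner and target genes was not tested.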

How the data were processed

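RNA was amplified with a kit that does not mark the strand (Ovation RNA-Seq System V2) and single reads were sequenced, per the protocols in the labels. Per the submitters' processing notes, reads were handled with DESeq2, HTSeq 0.6.1, TopHat2 2.1.0 and Trimmomatic 0.33 (listed without order) on builds NCBIM37 and mm9. Whether counting used strand is not stated there, so overlapping genes are uncertain. The authors deposited raw counts per Ensembl gene, with 5 closing rows that name no gene, which were left out. Gene symbols (32919 genes matched) and exon lengths came from GENCODE M21 (build GRCm38). The test was edgeR 4.0.16 (R 4.3.3): TMM, filterByExpr, a quasi-likelihood fit on genotype over all genes, Benjamini-Hochberg adjustment and a threshold of 0.05. The F statistic of each fold change gave its SE and 95% interval. Counting error alone allows up to 3 reads, or 0.322 to 0.489 CPM, where none was counted. No libraries were duplicates (lowest chi-square over its degrees of freedom, 19.2). On simulated data for 11724 genes of this comparison, the test recovered 28.6% of 2-fold and 94.1% of 4-fold changes at 100 CPM or more. At 20 to 100 CPM it recovered 5.26% and 52.9%. These shares rest on 21, 17, 57 and 70 changed genes over 3 runs, with 12 false calls in all. The p that an adjusted threshold demands depends on how many genes change. Only 2 genes passed in the real data, so recovery there may be lower than these shares.

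Members and lists were chosen with earlier results of these data known. Named were the 8 members, Id2, per partner or target list the 3 genes of smallest p, set markers (one of them not reported here), and the 2 genes of nearest pattern per member; Ikzf4, Tle2, Cd4, Cd8a, Dntt, Igll1, Notch3, Pax5, Ighm, Irf8, Tcf4, Itgax, Pf4, Ppbp, Gzma, Itga2, Tbx21, Cd27, Il2rb, Cd3d, Trbc2, Bcl11b, Lat, Alas2 and Il7r were named after their values were seen. No explanation was tested. The alternatives were DESeq2 1.42.0, limma-voom (limma 3.58.1), RLE scaling, no filter, a stricter filter (10 counts in 3 libraries and a mean of 2 CPM), libraries left out, a replicate block, library sizes without genes above 1000 CPM, and the longest transcript as length. Figures used matplotlib 3.10.9.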

Additional observations from a re-analysis of the deposited data

How the results depend on the processing

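None of the 8 members passed in any of the 14 alternative fits. Ikzf3 and Cbfb stayed negative and Runx1 positive in all 14 (log2 fold changes of -0.19 to -0.11, -0.49 to -0.11 and 0.13 to 0.32). The uncalled direction of the others turned when libraries were left out, with ranges over single libraries of -0.14 to 0.047 for Ikzf1, -1.44 to 0.27 for Ikzf2, -0.37 to 0.036 for Runx3 and -0.11 to 0.36 for Runx2. Without wildtype 1 and deficient 1 together the values were 0.036 for Ikzf1, 0.35 for Ikzf2, -0.13 for Ikzf5 and 0.17 for Runx3; the cause was not tested. Over all genes, 2 passed in the main test, against 65 with DESeq2 on the filtered genes, 98 with edgeR without a filter, 1 with limma-voom, 0 to 0 when a single library was left out, and 0 without both libraries. With the replicate number as a block, 0 genes passed. Same-numbered libraries did not deviate together in their centred values (correlations of -0.03, -0.01 and -0.02 over 6155 genes). No library correlated best with its own number. With 3 libraries per genotype, these values cannot decide whether the numbers pair the samples. Library 1 of both genotypes had the most tested genes at 0 (5.63% and 5.57%), and whether same-numbered libraries shared a preparation was not tested. Counts of 46 to 456 for Ikzf2 and 100 to 444 for Ikzf5 were the lowest among the members, and the intervals of both were the widest.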
